A study of Mus musculus with 12 samples.

Results

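The 10 genes described here encode major heat shock proteins of the mouse brain, namely Hspa8, Hsp90aa1, Hsp90ab1, Hspa4, Hspa4l, Dnaja1, Hspa5, Hsp90b1, Hspa9 and Hspd1, out of 20504 gene entries counted on coding sequence (CDS). They were chosen by name, and Hspa8 also because its reads are among the most abundant in the ribosome footprints and in the polysome immunoprecipitates (IP), so its levels are given as a description. All 10 were present in both count tables, and all 10 passed the limit of a mean of 37 counts per library in each comparison. All mice were Camk2a-cre-RiboTag animals, 3 months old, in which the Camk2a promoter drives Cre in principal excitatory neurons of the forebrain and switches on an HA-tagged copy of the ribosomal protein Rpl22. The tissue was the right frontal lobe for mice A to D, and for mice E and F it is described only as brain. Mice A and B, which the labels call untreated, received the captisol vehicle by oral gavage according to the study's methods. Mice C and D received a dose of 100 mg/kg AZD-8055, an ATP-competitive mTOR inhibitor, 1 h before collection, and from each of these 4 mice both ribosome footprints and poly(A) RNA were sequenced. Mice E and F, labelled untreated, each gave an RNA-Seq library of the homogenate (input) and of polysomes pulled down by the HA tag, so there were 12 libraries and 2 mice per group. With 2 mice per group the spread between replicates is itself poorly known, and in tissue with many cell types a change in the number of expressing cells and a change in RNA per cell cannot be told apart.

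Heat shock proteins are molecular chaperones that bind unfolded stretches of other proteins, and many of them are made in large amounts without any stress. HSP70 proteins bind and release clients in a cycle driven by ATP, in which J-proteins such as Dnaja1 stimulate ATP hydrolysis and HSP110 proteins such as Hspa4 and Hspa4l exchange the bound nucleotide, and clients can then pass to HSP90. Hspa8 is the constitutive HSP70 of the cytosol and in neurons also strips clathrin from endocytosed vesicles, Hspa5 (BiP) and Hsp90b1 (GRP94) fold proteins of the secretory pathway in the endoplasmic reticulum (ER), and Hspa9 and Hspd1 act in the mitochondrial matrix. mTOR promotes the translation of mRNAs that begin with a terminal oligopyrimidine (TOP) motif, most of which encode ribosomal proteins and translation factors.

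The libraries held between 9395385 and 10649939 CDS reads for RNA-Seq of mice A to D, between 3503873 and 9259938 for footprints, between 12580397 and 15585831 for input, and between 9309496 and 9975629 for IP. Counting error did not cover the difference between the mice of a group (chi-square per degree of freedom 2.61 to 9.53). A reference list of mTOR-sensitive TOP genes, which the study chose partly on these samples, is given as a description only. Of these, 10 of 10 were called lower in footprints after AZD-8055, with a median log2 change of -1.27, where 0.982% of all genes were called lower. The IP was depleted of glial and interneuron markers. Summed over their marker genes, astrocyte reads were at 70.6 and 79.9 counts per 1000000 CDS reads (CPM) in IP against 776 to 879 in input, oligodendrocyte reads at 146 and 154 against 1959 to 2088, and inhibitory neuron reads at 212 and 144 against 947 to 966, while excitatory neuron markers were at 7178 and 6652 against 4689 to 5024. No marker was at 0 in any library.

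Hspa8 took 0.320% to 0.668% of all CDS reads in a library and ranked between 1 and 3 of all genes by reads, without division by length. Together the 10 genes held 0.971% to 1.69% of CDS reads. In RNA-Seq of homogenized tissue Hspa8 stood at 4785 and 4125 CPM in the vehicle mice A and B, at 3980 and 3896 in the treated mice C and D, and at 3205 and 3373 in mice E and F, and in IP it stood at 5884 CPM in mouse E and 6685 in mouse F. Its footprints were at 6039, 5601, 5143 and 4498 CPM in mice A to D. The order of the RNA-Seq groups was thus input (3289 ± 119 CPM, SD, n = 2), AZD-8055 (3938 ± 59.3), vehicle (4455 ± 467) and IP (6284 ± 566). No neighbours in this order overlapped, but the gap between the nearest vehicle and AZD-8055 mice was smaller than the spread between mice A and B.

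**Figure D1:**
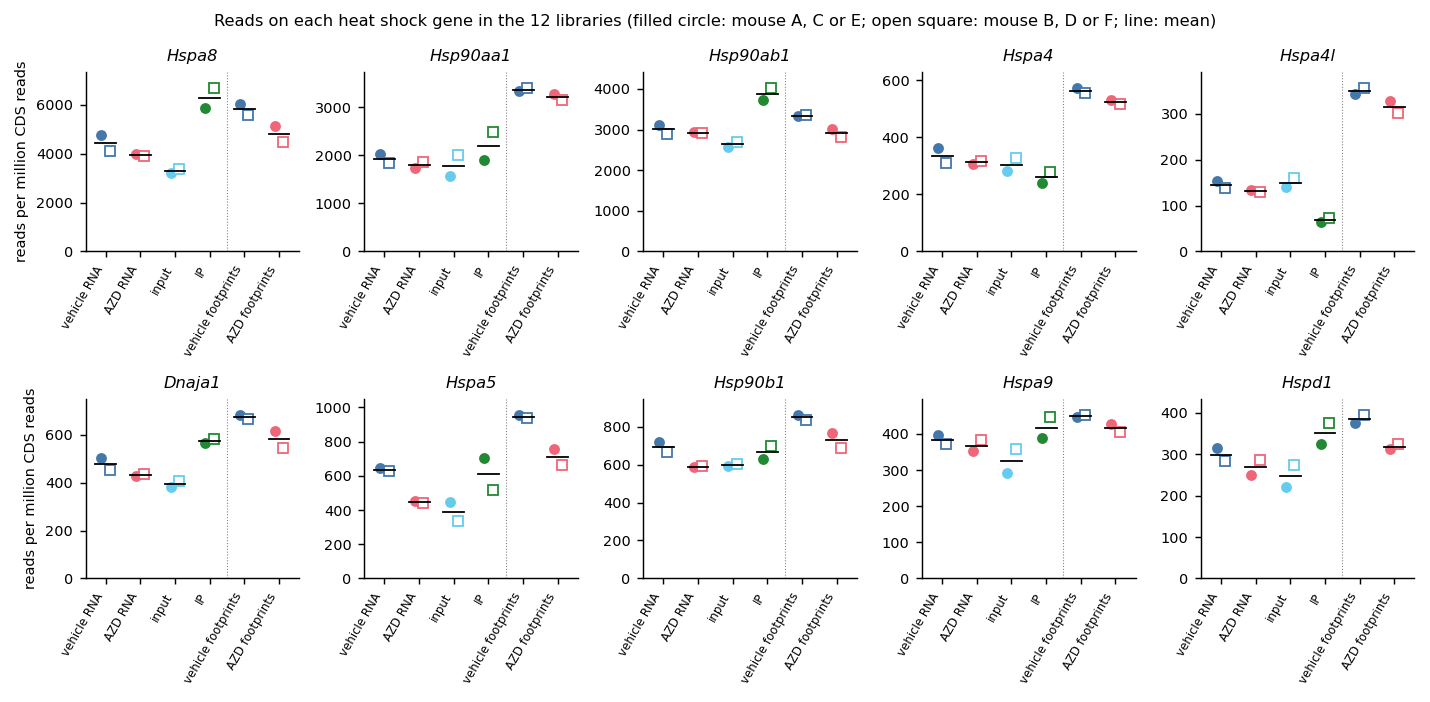
CPM on CDS (linear axis from 0) for each of the 10 genes in the 6 groups, with RNA-Seq groups left of the dotted line and footprints right of it, 1 point per mouse and a line at the mean of 2 mice. Hspa8 is highest in IP, Hspa4l is lowest in IP, and the AZD-8055 footprints lie below the vehicle footprints in every panel.

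The genes whose profile across the 12 libraries was most like that of Hspa8, by Pearson's r of log2(CPM + 1) among 12011 genes, were Stip1 (0.971), the co-chaperone that links HSP70 to HSP90, Ndufab1 (0.970), Bex4 (0.963), Psmd12 (0.963), a proteasome subunit, and Hspe1 (0.962), the mitochondrial co-chaperonin of Hspd1. Among the other 9 heat shock genes Hsp90ab1 was closest (0.921, rank 72), followed by Dnaja1 (0.906, rank 136) and Hspd1 (0.895, rank 175), while Hspa4 (0.287) and Hspa4l (0.024) were not alike. These 12 points share mice and differ in assay and depth, so the values only describe the libraries.

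Translation efficiency (TE) is the normalized footprint count of a gene over its normalized RNA-Seq count in the same mouse. All 10 genes lay above the median log2 TE of 0.016 over 10882 genes in the vehicle mice, and their median was 0.54. Beside them, 47 of 77 other listed chaperone genes lay above that median, with a median log2 TE of 0.18. Footprint abundance entered the choice of Hspa8, so these positions carry no test.

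The HSP110 exchange factors and the inducible HSP90 had the highest TE of the 10 genes. In mice A and B Hspa4l had log2 TEs of 1.29 and 1.44 (1.36 ± 0.11, SD, n = 2), at the 93.9 percentile of all genes, and Hspa4 had 0.78 and 0.92 (0.85 ± 0.095), at the 83.9 percentile. Hsp90aa1, the stress-responsive cytosolic HSP90, had 0.85 and 0.96 (0.90 ± 0.076, percentile 85.2), whereas its constitutive relative Hsp90ab1 had the lowest value of the 10 genes, 0.22 and 0.28 (0.25 ± 0.046, percentile 61.3). The values of both mice for Hsp90aa1 and Hsp90ab1 did not overlap. Within a library, where scaling cancels, the reads of Hsp90aa1 over those of Hsp90ab1 came to 1.00 to 1.11 in the 4 footprint libraries and to 0.593 to 0.649 in the 4 RNA-Seq libraries of the same mice. That ratio is not per length, and only its shift between assays is read here.

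Between these extremes were Hspa5 (0.67 ± 0.030, percentile 78.2), Dnaja1 (0.60 ± 0.044, percentile 75.6), Hspa8 (0.49 ± 0.034, percentile 71.5) and Hspd1 (0.46 ± 0.11, percentile 70.5). Hsp90b1 (0.39 ± 0.0044, percentile 67.6) and Hspa9 (0.33 ± 0.032, percentile 64.6) followed. The values of Hspa8 and Hsp90b1 lay within the range of Hspd1 between mice A and B. The co-chaperonin Hspe1 had 0.77 and 0.60, above its partner Hspd1 in both mice (0.39 and 0.54).

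**Figure D2:**
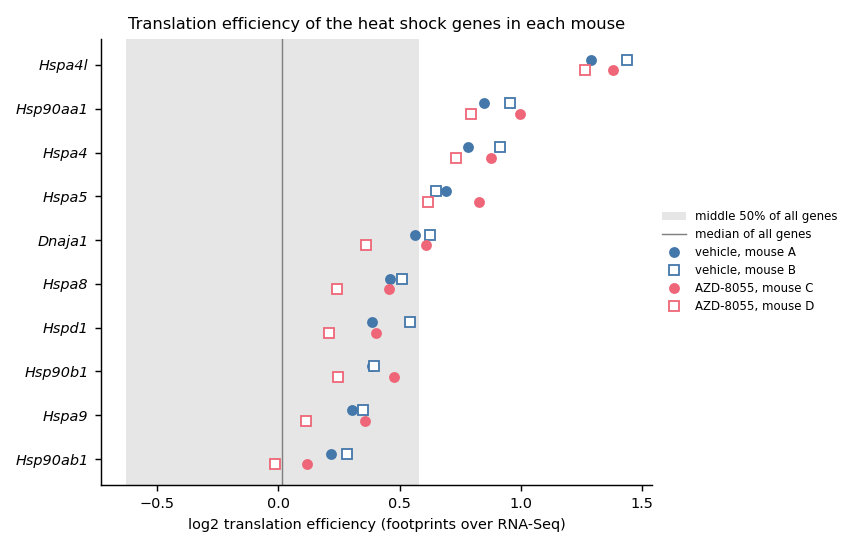
Log2 TE (footprints over RNA-Seq, horizontal axis) of the 10 genes, 1 point per mouse, with the median and the middle 50% of all genes in the vehicle mice as a line and a grey band. Hspa4l, Hsp90aa1, Hspa4 and Hspa5 lie right of the band in all 4 mice, and mouse D has the lowest value of the 4 mice for every gene.

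The comparison of AZD-8055 with vehicle asks how the brain's mRNAs and their ribosome occupancy differ 1 h after mTOR inhibition. Of the 10 genes only Hspa5 passed the test in edgeR at the count limit used, and it fell in both assays. Its RNA fell to 0.709 of the vehicle level and its footprints to 0.746, and its TE did not pass the test in either direction. The other 9 genes had RNA changes of -0.23 to -0.03 on the log2 scale and footprint changes of -0.28 to -0.08, none of which passed, although the footprint changes of Hspa8 and Hsp90ab1 did so under some alternatives.

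Hspa5 encodes BiP, the HSP70 of the ER lumen that also binds and restrains the sensors of the unfolded protein response. Its RNA was at 651 and 622 CPM in the vehicle mice against 457 and 445 in the treated mice, on CPM scaled by edgeR's TMM factors. Both treated mice lay below both vehicle mice, by more than the mice of either group differed. The log2 change was -0.50 (SE 0.063), with an adjusted p of 0.0022 by the quasi-likelihood F-test of edgeR after Benjamini-Hochberg adjustment over 12182 genes, of which 0.148% were called (0.0903% lower). The call was also made by DESeq2 (adjusted p = 2.25e-09) and on exon counts (edgeR, adjusted p = 0.0096), but without mouse D the edgeR adjusted p was 0.059 at a log2 change of -0.48. Leaving out a mouse leaves 1 library in its group, which is then assumed to vary like the 2 of the other group, here and below. Mice E and F had input levels of 446 and 334 CPM on library totals, near or below the 454 and 442 CPM of the treated mice and below the 645 and 626 CPM of the vehicle mice. Mice A, B, E and F all carry the label untreated, and whether mice E and F were gavaged is not given in the sources used here. Whether this difference bears on the result was not tested.

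Footprints on Hspa5 were at 975 and 950 TMM-scaled CPM in mice A and B against 772 and 665 in mice C and D. The treated mice were again wholly lower, and they differed more from each other than the vehicle mice did. The log2 change was -0.42 (SE 0.076, edgeR with Benjamini-Hochberg adjustment, adjusted p = 0.025), where 1.03% of 10695 genes were called and 0.982% were called lower. DESeq2 gave an adjusted p of 7.8e-05. With mouse A left out the edgeR adjusted p was 0.31 at a change of -0.40, and with mouse B left out it was 0.40 at -0.44, so the call was lost without either vehicle library.

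**Figure D3:**
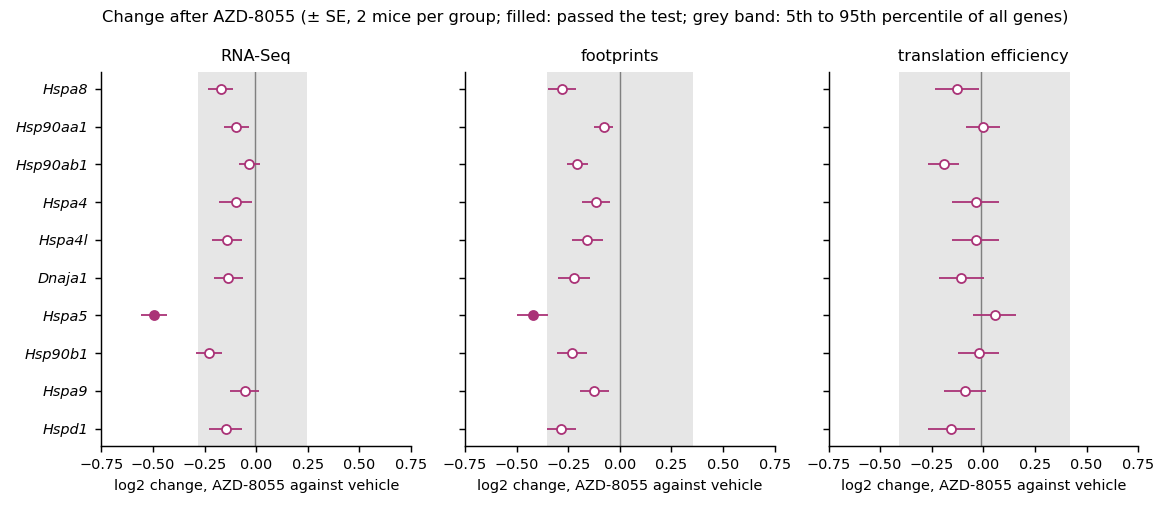
Log2 change after AZD-8055 (± SE, 2 mice per group) in RNA, footprints and TE for the 10 genes, with filled points for those that passed the test, a line at the median of all genes and a grey band from their 5th to 95th percentile. Hspa5 alone is filled, at -0.50 in RNA and -0.42 in footprints, and no point is filled for TE.

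Hspa8 had an RNA change of -0.17 (SE 0.060, edgeR with Benjamini-Hochberg adjustment, adjusted p = 0.43), from 4829 and 4104 TMM-scaled CPM in the vehicle mice and 4009 and 3920 in the treated mice. Its footprints were at 6164 and 5682 against 5240 and 4519, a change of -0.28 (SE 0.066, edgeR, adjusted p = 0.10). The groups did not overlap in either assay. The footprint change of Hspa8 was called by DESeq2 (adjusted p = 0.030) and, in edgeR, with no filter on counts (adjusted p = 0.021) or at a mean of 100 counts (adjusted p = 0.043), so its call depends on the tool and on the count limit. At a mean of 100 counts Hsp90ab1 was called as well (edgeR, adjusted p = 0.044). Without mouse C the change of Hspa8 was -0.39 and without mouse D it was -0.18, and both were called, but those calls rest on the spread between the vehicle mice alone.

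All 10 genes had negative changes in both assays. The median of the 10 was -0.14 in RNA, where that of all genes was -0.003, and -0.21 in footprints, where that of all genes was 0.001. In footprints the treated mice were wholly below the vehicle mice for 10 of 10 genes, and this held for 22.5% of all genes tested. In RNA it held for 5 of the 10 (Hspa8, Hspa4l, Dnaja1, Hspa5 and Hsp90b1) and for 19.6% of all genes. These genes share mice and are not independent of each other. How many were called in footprints varied with the mouse left out, from 0 without mouse A or mouse B to 7 without mouse C and 4 without mouse D. Calls over all genes moved with it, from 5 higher and 105 lower to 355 higher and 482 lower without mouse C and 77 higher and 188 lower without mouse D. In RNA the log2 change with a mouse left out ran from -0.52 to -0.46 for Hspa5 and from -0.28 to -0.05 for Hspa8.

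For the cytosolic HSP90 pair, the footprint change was -0.08 (SE 0.046) for Hsp90aa1 and -0.21 (SE 0.050) for Hsp90ab1. Dnaja1 had -0.22 (SE 0.076), Hspa4 -0.12 (SE 0.066) and Hspa4l -0.16 (SE 0.076). In the mitochondrial pair, the footprints of the chaperonin Hspd1 were at 384 and 400 TMM-scaled CPM in the vehicle mice and at 318 and 325 in the treated mice (log2 change -0.28, SE 0.071, edgeR with Benjamini-Hochberg adjustment, adjusted p = 0.13), and those of the matrix HSP70 Hspa9 were at 457 and 458 against 434 and 406 (-0.12, SE 0.070, adjusted p = 0.48).

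None of the 10 genes passed the TE test, in which a call needed an adjusted p under 0.05 and a fold change over 2 and 0.305% of 11797 genes were called. Neither did any pass without the limit on the fold change (0.865% of all genes) or with the mouse as a block (1.25%). Their log2 TE changes ran from -0.19 to 0.05, with a median of -0.06 beside -0.01 for all genes. Hsp90ab1, at -0.19 (SE 0.077), was the only one of the 10 with an unadjusted p under 0.05 in edgeR (adjusted p = 0.59 with Benjamini-Hochberg adjustment). DESeq2 called 0 of the 10 as well. For comparison, and as a description only, the 10 TOP genes were all called lower in TE, with a median of -1.28 on the log2 scale.

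The ER chaperones other than Hspa5 and Hsp90b1 formed a list of 16 genes. In RNA, 15 of the 16 had negative changes with a median of -0.22, and 1 passed the test (0.148% of all genes did), Manf, a secreted ER stress-responsive factor, at -0.51 (SE 0.087, edgeR with Benjamini-Hochberg adjustment, adjusted p = 0.028, DESeq2 adjusted p = 0.049). In footprints 16 of 16 were negative with a median of -0.23, and 2 passed (1.03% of all genes did). They were Pdia4, a disulfide isomerase, at -0.40 (SE 0.076, edgeR, adjusted p = 0.037, DESeq2 adjusted p = 0.060) and Canx, the membrane-bound lectin chaperone calnexin, at -0.30 (SE 0.058, edgeR, adjusted p = 0.038, DESeq2 adjusted p = 0.0023). The RNA change of Canx was -0.03 and that of Pdia4 -0.39, and neither passed. Hsp90b1, the ER HSP90, had -0.23 in RNA (SE 0.064, adjusted p = 0.25) and -0.23 in footprints (SE 0.072, adjusted p = 0.23), with RNA at 725 and 664 TMM-scaled CPM in the vehicle mice and at 590 and 595 in the treated mice, which did not overlap.

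**Figure D4:**
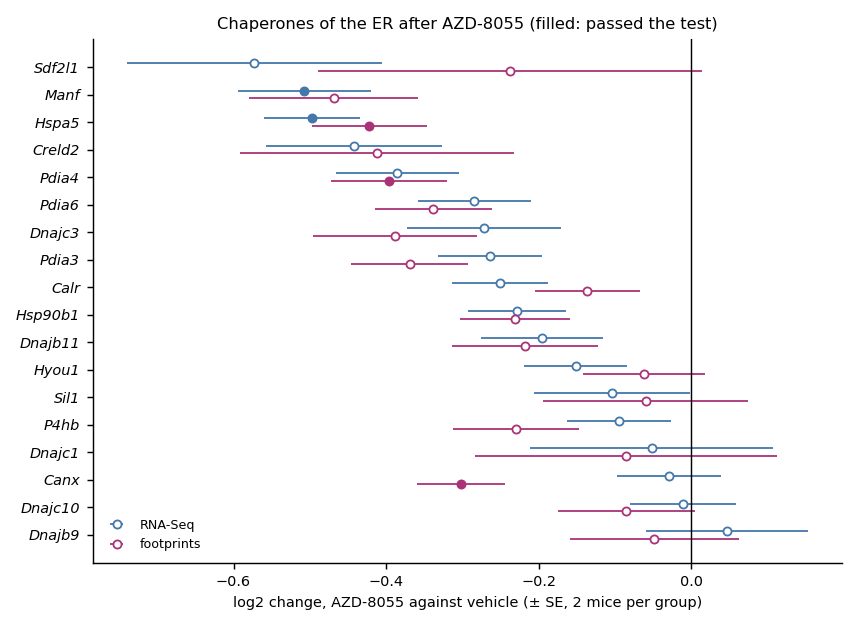
Log2 change after AZD-8055 (± SE, 2 mice per group) in RNA-Seq and footprints for Hspa5, Hsp90b1 and the 16 other listed ER chaperones, ordered by RNA change, with filled points for those that passed the test. All points lie left of 0 apart from Dnajb9 in RNA (0.05), and the filled ones are Manf and Hspa5 in RNA and Hspa5, Pdia4 and Canx in footprints.

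Genes of ER chaperones are known to share a promoter element, the ER stress response element (ERSE), and genes of the cytosolic and mitochondrial heat shock response a heat shock element (HSE). Promoter windows from RefSeq (build GRCm38.p6, from 250 bases before to 50 after each transcript start) were at hand for 6 of the 10 genes and were searched on both strands for the ERSE letters CCAAT, any 9 bases and CCACG (on the other strand CGTGG, any 9 bases and ATTGG) and for the HSE letters GAA, TTC and GAA set 2 bases apart (TTC, GAA and TTC on the other strand). The ERSE letters were in 39 of 32817 windows (0.119%), in those of 2 of the 6 genes, Hspa5 and Hsp90b1, and in those of 5 of the 13 other ER chaperones with a window. The HSE letters were in 198 windows (0.603%) and in those of 1 of the 6 genes, Hspd1. No gene had both, and Hspa4, Hspa4l and Dnaja1 had neither. The stretches around the matches are shown because few windows hold these letters, with the fixed letters of the motif in capitals and each stretch read 5′ to 3′ along its gene's strand.
Hspa5, chr2:34772020-34772049, plus strand: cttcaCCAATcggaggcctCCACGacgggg
Hsp90b1, chr10:86705527-86705556, minus strand: gagtgCGTGGtgaggcacgATTGGtgagtt
Hsp90b1, chr10:86705632-86705661, minus strand: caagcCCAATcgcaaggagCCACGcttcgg
Hspd1, chr1:55088050-55088079, minus strand: gccttccgGAAggTTCtaGAAcggaccgtg
The Hspa5 match starts 65 bases before the transcript start and those of Hsp90b1 107 and 212 bases before it, the nearer of them on the opposite strand. The Hspd1 match, 139 bases before the start of 1 of its transcripts, overlaps another match on the opposite strand and lies between that start and the start of the divergent gene of its partner Hspe1. A match of letters is a description and says nothing about a factor's binding in these brains.

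Few genes of the other chaperone lists passed the tests after AZD-8055. Over all 81 other listed genes 1 passed the RNA test (0.148% of all genes did) and, of the 76 tested in footprints, 3 passed (1.03% of all genes), the third being Dnajb4, a J-protein of the cytosol, at -0.41 (SE 0.080, edgeR with Benjamini-Hochberg adjustment, adjusted p = 0.040, DESeq2 adjusted p = 0.073). None of the 81 passed for TE. The inducible heat shock proteins, the list with the classical targets of the heat shock response, had a median of -0.20 in RNA (13 genes, 11 negative) and -0.19 in footprints (10 genes, 7 negative). HSP90 co-chaperones had -0.07 in both assays, mitochondrial chaperones 0.05 and -0.03, J-proteins -0.01 and -0.06, and HSP70 exchange and binding factors -0.06 and -0.09, with 0 called in RNA in each of these lists. No cell type marker was called in RNA or footprints.

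The IP against input comparison asks which mRNAs were on tagged ribosomes of excitatory neurons more than in the whole tissue. Most heat shock genes were higher in IP. Of the 9 genes other than Hspa8, 7 were called higher and 1, Hspa4l, lower, at an adjusted p under 0.05 in edgeR, where 75.5% of 12211 genes were called (36.5% higher, 39% lower). Their median log2 change was 0.79, beside -0.07 for all genes. Of these 9 genes 8 were called on exon counts (69.4% of all genes), 9 with the mouse as a block (81.9%) and 1, Hspa5, when a fold change over 2 was also needed (46.5%). Since scaling by library totals instead of TMM moves the median of all genes to -0.51, the changes are relative to the bulk of genes. The sign of Hspa4 flips under that scaling, but its distance from the median of all genes was 0.27 under both.

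Hspa8 was at 2765 and 2909 TMM-scaled CPM in input and at 6841 and 7833 in IP of mice E and F, a log2 ratio of 1.31 in mouse E and 1.43 in mouse F. IP abundance was part of why Hspa8 was chosen, so it is given without a test. On exon counts the ratios were 0.87 and 0.94. Almost all Hspa8 reads on exons were also on CDS, with 54779 against 54776 reads in IP of mouse E, while the exon reads of whole libraries were 1.74 and 1.79 times the CDS reads in input and 2.11 and 2.23 times in IP.

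The cytosolic HSP90 genes and the J-protein gene Dnaja1 were also higher in IP. Hsp90ab1 was at 2227 and 2316 TMM-scaled CPM in input and 4332 and 4705 in IP (log2 change 0.99, SE 0.088, edgeR with Benjamini-Hochberg adjustment, adjusted p = 1.4e-05), and Hsp90aa1 at 1352 and 1726 against 2202 and 2919 (0.73, SE 0.16, adjusted p = 0.0023). Both mice rose for both genes. Dnaja1 rose from 330 and 349 to 659 and 682 (0.98, SE 0.10, adjusted p = 3.2e-05).

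The 2 HSP110 exchange factors went apart. Hspa4l was at 121 and 137 TMM-scaled CPM in input and 75.8 and 84.7 in IP, with both IP values below both inputs (log2 change -0.68, SE 0.13, edgeR with Benjamini-Hochberg adjustment, adjusted p = 0.0012). Hspa4 was at 242 and 283 in input and 280 and 325 in IP, which overlapped (0.21, SE 0.13, adjusted p = 0.17). With the mouse as a block the adjusted p of Hspa4 was 0.022, and on exon counts its change was 0.36 with an adjusted p of 0.021, so its call depends on the fit. The reads of Hspa4l over those of Hspa4 came to 0.499 and 0.486 in input and to 0.271 and 0.260 in IP, a ratio that no scaling touches. In exon counts too Hspa4l was lower in IP (-0.57, adjusted p = 0.0023).

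In the ER, Hspa5 rose from 385 to 820 TMM-scaled CPM in mouse E and from 288 to 605 in mouse F, so both levels were lower in mouse F and the log2 ratios were nearly equal (1.09 and 1.07). The change was 1.08 (SE 0.18, edgeR with Benjamini-Hochberg adjustment, adjusted p = 0.00049). Hsp90b1 rose from 512 and 522 to 733 and 817 (0.58, SE 0.10, adjusted p = 0.00078), but on exon counts its change was 0.21 and did not pass (adjusted p = 0.057). Both mitochondrial genes rose. Hspd1 went from 191 and 237 to 379 and 439.5 (0.94, SE 0.14, adjusted p = 0.00026) and Hspa9 from 253 and 308 to 451 and 522 (0.79, SE 0.13, adjusted p = 0.00056). In each case the IP values lay wholly above the inputs, which held for 42.2% of all genes.

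**Figure D5:**
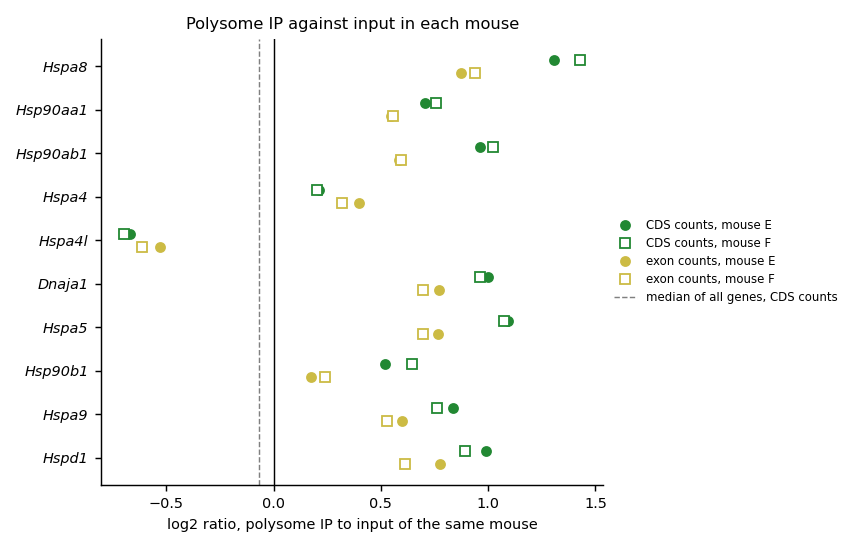
Log2 ratio of IP to input within mouse E (circles) and mouse F (squares) for the 10 genes, on CDS counts (green) and exon counts (yellow), with a dashed line at the median of all genes on CDS counts. All ratios are above 0 apart from those of Hspa4l, and the CDS ratios exceed the exon ratios for 8 of the 10 genes, with Hspa4 and Hspa4l the exceptions.

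Other chaperones also rose in IP for the most part, 54 of 81 higher and 16 lower, with a median of 0.77, where 36.5% of all genes were called higher and 39% lower. On exon counts 59 of the 81 were called in either direction, against 70 on CDS counts. On CDS counts 13 of 13 genes of the mitochondrial list rose, with Pam16, a subunit of the import motor, at 2.10 (SE 0.14) and a list median of 1.08. On exon counts 12 of these 13 were called, where 69.4% of all genes were. Of the HSP90 co-chaperones 12 of 14 rose and 1 fell, with a median of 1.13, and Ahsa1, which stimulates the HSP90 ATPase, was at 1.78 (SE 0.13). Of the 16 ER chaperones 9 rose and 4 fell, of 13 J-proteins 8 rose and 4 fell, and of 12 HSP70 exchange and binding factors 6 rose and 3 fell. Among these were the exchange factor Hspbp1 at 2.05 (SE 0.11) and the ubiquitin ligase Stub1, which binds HSP70 and HSP90, at 2.03 (SE 0.12). Some directions depended on the count type. In mice E and F the log2 ratios of Dnajc5 were -0.64 and -0.72 on CDS counts but 0.22 and 0.20 on exon counts. Those of Hspa12a were -1.09 and -1.40 against 0.55 and 0.47. Other genes, such as Dnajb14 and Hspa12b, stayed below 0 on both counts in both mice.

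Of the 13 inducible heat shock proteins 6 were called higher and 4 lower, where 36.5% of all genes were called higher and 39% lower. Those that fell were the small heat shock proteins Hspb8 at -2.55 (SE 0.31) and Hspb1 at -2.17 (SE 0.43), their partner Bag3 at -1.92 (SE 0.27), and the collagen chaperone Serpinh1 at -2.95 (SE 0.29). For Hspb1 the log2 ratio within mouse E (-3.25) lay far below that within mouse F (-1.28), the widest gap of the 4. Serpinh1 was at 20.6 and 16.9 TMM-scaled CPM in input and 1.75 and 3.05 in IP. These 4 genes fell together with the markers of other cell types, and the part of those cells in the result was not tested. All 5 astrocyte, all 5 oligodendrocyte and all 4 endothelial markers were called lower in IP, where 39% of all genes were. So were all 5 inhibitory neuron, all 3 oligodendrocyte precursor and 4 of 5 microglial markers. Of the 5 excitatory neuron markers 3 were higher, and Camk2a was lower on CDS counts (-0.66, SE 0.16, edgeR with Benjamini-Hochberg adjustment, adjusted p = 0.0053) but not on exon counts (0.27, adjusted p = 0.11).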

How the data were processed

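The authors deposited counts of uniquely mapped reads per gene without normalization, in a CDS table of all 12 libraries and an exon table of the 8 RNA-Seq libraries, both keyed by gene symbol. Per the study's methods they trimmed footprint reads, clipped poly(A) stretches, removed rRNA reads (Bowtie2), and aligned (TopHat2) and counted (HTSeq) the rest (versions not given in the sources used here), and the submitters' processing notes name mm10. Unique mapping leaves out reads shared with near-identical copies such as processed pseudogenes, so levels of Hspa8, the cytosolic HSP90 genes and the Hspa1a and Hspa1b pair are uncertain to that extent. The same holds for TE values and read ratios built on these levels. Whether the loss differs between footprints and RNA-Seq was not tested. Date-like symbols (27 entries, 0.350% of counts) stayed as they were. The columns belonging to no sample that were used number 0.

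RNA, footprint, TE (assay by treatment interaction) and IP changes were fitted with edgeR 4.0.16 in R 4.3.3 on CDS counts of the libraries compared (TMM, quasi-likelihood F-test, Benjamini-Hochberg adjustment over all genes tested, threshold 0.05, mean of at least 37 counts), with a fold change over 2 as a further condition for TE. The study's RiboDiff was not used here. TE used DESeq2 1.42.0 size factors over the 8 libraries of mice A to D, for genes with at least 75 counts in each assay over both vehicle mice. CPM are counts per 1000000 CDS reads, and TMM-scaled CPM use edgeR's effective library size of genes tested. Profiles used a pseudocount of 1. Tables were handled with Python 3.11.15, numpy 2.4.6, pandas 2.3.3 and matplotlib 3.10.9. The fits were tested on simulated counts.

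Libraries of one mouse share its letter, so the animal pairs them. The difference between mice was correlated across genes at 0.249 between RNA-Seq and footprints of mice A and B, 0.199 for mice C and D, and 0.482 between input and IP of mice E and F. The RNA and footprint comparisons hold different mice in each group and have no block. No gene lengths were used, so levels are not compared between genes.

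The 10 genes and all lists were chosen with earlier results of these data known. The genes named are the 10 genes, at most the 8 other listed chaperones with the largest change among those called in each comparison, the 5 genes most like Hspa8, and markers. Dnajb9, Hspe1, Dnajc5, Hspa12a, Dnajb14 and Hspa12b were named after their values were seen. Alternatives were DESeq2, RLE factors or library totals, other count filters, exon counts, the mouse as a block, another fold limit and leaving out each mouse.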

Additional observations from a re-analysis of the deposited data

How the results depend on the processing

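Mice numbered 2 per group, which limits every call given here. Mouse C gave the fewest footprints, which bears on the footprint and TE calls only. The RNA change of Hspa5 kept its call with DESeq2, both other scalings, both count filters and exon counts. In RNA, DESeq2 called 21 genes lower, library totals 20, and no count filter 48 lower and 30 higher, against 11 and 7. Leaving out a mouse gave 3 to 13 genes higher, 10 to 29 lower and 0 to 2 of the 10 heat shock genes, with log2 changes of -0.22 to 0.033 for Hspa4 and -0.091 to 0.033 for Hsp90ab1.

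For footprints the main fit called 5 genes higher, 105 lower and 1 heat shock gene, where 1.03% of all genes were called. DESeq2 called 13 higher, 110 lower and 2 heat shock genes. Library totals gave 14 higher and 114 lower, and no count filter 60 higher, 204 lower and 2 heat shock genes. At a mean of 100 counts 21 genes were higher, and Hspa8 and Hsp90ab1 were among the heat shock genes called. Leaving out a mouse gave 2 to 355 higher, 61 to 482 lower and 0 to 7 heat shock genes, the widest being without mouse C. No footprint change of the 10 genes changed sign.

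For TE (1 higher, 35 lower, 0 heat shock genes) 0 genes were higher with DESeq2 or at a mean of 100 counts, 13 without a filter, 7 with the mouse as a replicate block, and 9 higher and 93 lower without a fold limit. Leaving out a mouse gave 0 to 4 higher and 27 to 37 lower. None of the alternatives called any of the 10 genes for TE. The log2 TE change of Hsp90aa1, -0.0008, was 0.0097 with DESeq2, 0.0099 with RLE factors, 0.034 with library totals and 0.023 at a mean of 100 counts, and that of Hsp90b1 was 0.012 and 0.00040 under the last 2. Without a mouse each, the TE changes ran from -0.081 to 0.083 for Hsp90aa1, -0.13 to 0.051 for Hspa4, -0.14 to 0.059 for Hspa4l, -0.028 to 0.14 for Hspa5, -0.12 to 0.073 for Hsp90b1 and -0.18 to 0.019 for Hspa9.

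For IP, needing a fold over 2 left 2493 genes higher. Hspa8 is left out of the counts here, since it was chosen partly on its IP abundance. Of the other 9 heat shock genes 1 was called with that limit (46.5% of all genes) and 8 without it (75.5%). Library totals gave 3022 genes higher and 6272 lower, against 4455 and 4766, and -0.23 for Hspa4. With the mouse as a replicate block 4830 genes were higher and all 9 heat shock genes other than Hspa8 were called (81.9% of all genes), Hspa4 being the one added. Leaving out mouse E or F leaves 1 library of each kind, so those are values with no test, and none changed sign. In the vehicle mice 10 of 10 genes stayed above the median TE under each alternative. Over all alternatives 17 of their log2 TE values moved by at least the SD between mice A and B, and 23 did not. All 17 came with library totals or exon counts. The 23 include every value with a mouse left out, which cannot move a mean of 2 mice that far. The TE values of single genes thus depend on the scaling or the count type. The cause of these shifts was not tested.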
